A study of Mus musculus with 21 samples.

Results

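Accessible chromatin in trained quadriceps muscle 6 h after an exhaustive run was compared with that of sedentary muscle, over every region listed for this contrast in the deposited table, which was limited to an FDR (false discovery rate) below 0.05. The table holds 11779 regions, out of 41411 distinct regions listed in any of the 5 contrasts with calls and 63953 regions tested. The material was myonuclei, the nuclei of muscle fibres, taken with an antibody against PCM1 from the quadriceps of adult male C57/Bl6 wildtype mice and profiled by ATAC-seq, in which a transposase cuts and tags open DNA. The trained group had 12 weeks of voluntary wheel running and then 1 exhaustive treadmill bout, and its muscle was taken 6 h later. The sedentary group had neither wheels nor a bout. Values of other groups are set beside these where they were listed, from trained muscle taken at 0 h or 72 h after the bout and from untrained muscle, which had the bout without wheels, taken at 0 h or 6 h. Each group has 3 samples, and the series as a whole has 21 samples in 7 groups. No group was trained and left at rest, so training and the last bout cannot be told apart here, and the clock hour of sacrifice is not given in the sources used here.

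The value of a region is its concentration, which is the log2 of the mean normalised reads over the 3 samples of a group, and the change is the concentration at 6 h minus that in sedentary muscle. A positive change is a gain of accessibility. The tables hold these group means and nothing per sample, so depth per sample is unknown, no spread between replicates can be given, and every comparison below is a description of regions that had already passed the test of the deposited table. Each region was named for the protein-coding gene whose start of transcription lay closest on GRCm39. Many of these genes are far away, and distances are given for part of the named regions.

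Open chromatin outside promoters marks candidate enhancers, stretches where transcription factors bind and from which they act on genes that may lie far off. AP-1 is a family of factors made of pairs of Fos, Jun and related proteins. Many of their genes are immediate early genes, switched on within minutes by stretch, calcium and stress, and AP-1 pairs bind a short palindrome in enhancers. MEF2 and MyoD family factors hold the muscle programme open through motifs of their own, and the glucocorticoid receptor carries the hormonal part of the response to effort.

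The gained regions had 1 sequence feature that stood far apart from the lost ones, the AP-1 letters TGANTCA, where N is any base. To show it, the central 300 bases on the plus strand are printed for the 4 gained regions with the largest change among well covered regions, and for the 2 such lost regions for contrast. Reference sequence of GRCm39 is shown. Matches to the AP-1 letters are in capitals. The windows lie at chr15:103290511-103290810 (near Itga5), chr11:59804500-59804799 (near Med9), chr17:12494517-12494816 (in Map3k4), chr12:73802462-73802761 (near Hif1a), chr1:64715664-64715963 (near Ccnyl1) and chr4:140639730-140640029 (in Padi2).
Itga5: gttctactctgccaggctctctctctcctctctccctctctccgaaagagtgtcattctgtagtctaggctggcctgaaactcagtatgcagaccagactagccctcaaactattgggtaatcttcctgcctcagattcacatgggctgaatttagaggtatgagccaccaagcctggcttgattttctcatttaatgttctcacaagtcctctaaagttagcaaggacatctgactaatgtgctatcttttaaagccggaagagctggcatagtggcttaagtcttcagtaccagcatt
Med9: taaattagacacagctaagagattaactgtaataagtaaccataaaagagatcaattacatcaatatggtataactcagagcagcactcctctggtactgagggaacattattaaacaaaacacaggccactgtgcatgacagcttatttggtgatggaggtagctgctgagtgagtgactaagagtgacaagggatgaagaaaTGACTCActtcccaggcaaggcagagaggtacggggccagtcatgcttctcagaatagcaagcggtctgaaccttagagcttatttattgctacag
Map3k4: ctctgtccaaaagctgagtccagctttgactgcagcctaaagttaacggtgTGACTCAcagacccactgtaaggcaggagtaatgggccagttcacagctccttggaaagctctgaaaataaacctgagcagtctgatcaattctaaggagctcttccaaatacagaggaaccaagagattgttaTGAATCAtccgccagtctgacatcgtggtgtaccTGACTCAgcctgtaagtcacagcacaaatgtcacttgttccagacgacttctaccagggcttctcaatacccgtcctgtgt
Hif1a: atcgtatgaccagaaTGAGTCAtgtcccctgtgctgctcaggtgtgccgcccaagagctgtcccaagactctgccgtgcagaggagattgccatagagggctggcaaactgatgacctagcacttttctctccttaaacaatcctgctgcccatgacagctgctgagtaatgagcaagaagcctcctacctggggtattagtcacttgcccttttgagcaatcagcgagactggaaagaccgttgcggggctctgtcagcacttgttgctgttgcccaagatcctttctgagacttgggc
Ccnyl1: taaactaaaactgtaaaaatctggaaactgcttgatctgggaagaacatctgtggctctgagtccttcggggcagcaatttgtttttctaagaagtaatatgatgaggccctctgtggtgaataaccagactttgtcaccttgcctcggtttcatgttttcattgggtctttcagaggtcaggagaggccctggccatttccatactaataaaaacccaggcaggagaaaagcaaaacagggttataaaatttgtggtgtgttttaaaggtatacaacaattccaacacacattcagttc
Padi2: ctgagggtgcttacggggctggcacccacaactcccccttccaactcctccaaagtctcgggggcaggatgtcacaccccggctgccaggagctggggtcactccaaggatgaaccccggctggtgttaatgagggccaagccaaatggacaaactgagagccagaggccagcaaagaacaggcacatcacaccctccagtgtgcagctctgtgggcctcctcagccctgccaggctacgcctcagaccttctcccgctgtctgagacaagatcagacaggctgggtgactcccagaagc
The Map3k4 window held 3 matches, and those near Med9 and Hif1a held 1 each. The Itga5 window held none, nor did either lost window.

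Loss far outnumbered gain. Of the 63953 regions tested, 16.4% were lost (10516 regions) and 1.97% gained (1263 regions), so 89.3% of the listed regions were losses. The median change of lost regions was -0.83 (quartiles -0.99 and -0.71, deepest -2.25), a 1.78-fold drop in reads. Gains had a median of 1.05 (quartiles 0.85 and 1.34, largest 3.29), a 2.07-fold rise. Among regions with a concentration of at least 9.0, the table median, in the higher of the pair of groups, the medians were 0.87 for gains and -0.83 for losses. A change of at least 1 in size was reached by 55.2% of the gained and 23.3% of the lost regions. The smallest changes listed were 0.45 and -0.43.

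Gains lay at chromatin that was weakly open at rest, and losses at chromatin that was well open. The median sedentary concentration was 6.92 for gained regions and 9.12 for lost ones, or 121 and 556 normalised reads. At 6 h the medians had come close together, at 8.02 and 8.27. Per kb of width they were 8.13 and 10.04 in sedentary muscle and 9.25 and 9.18 at 6 h. Below a sedentary concentration of 7 the table held 672 gained and 22 lost regions, and from 10 upwards it held 3 gained and 2779 lost. Of the 3, the one in Zbtb16 had the highest resting concentration of any gained region (11.06). That value is not scaled by width, and the region was the widest gain, at 6278 bp. How large a change the test could list at each level was not tested, and it bears on both counts. The sedentary concentration is also part of the change itself. This favours low resting levels among gains, high ones among losses, and medians that come together at 6 h, to an extent that was not tested.

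**Figure D1:**
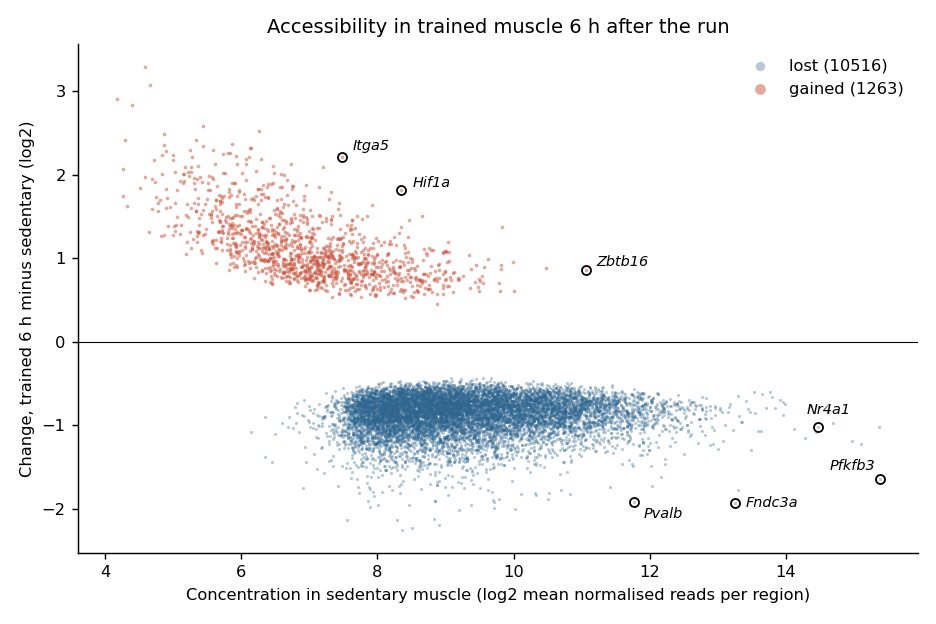
Each point is a listed region, with its concentration in sedentary muscle on the x axis and the change at 6 h in trained muscle on the y axis, both log2. The 1263 gains crowd at low resting levels and reach 3.29, while the 10516 losses run from 6.14 to 15.39 on the x axis at a median change of -0.83.

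Promoters were rare in both directions. A region overlapping 1 kb on either side of a protein-coding start site was counted as a promoter, and these made up 3.17% of gained (40 of 1263, interval 2.33 to 4.28) and 7.12% of lost regions (749 of 10516, interval 6.65 to 7.63). Introns held 48.9% of gained and 55.6% of lost regions, and intergenic DNA 43.6% and 32.3%. The median distance from the region's edge to the nearest start site was 28076 bp for gains and 19349 bp for losses. Gained regions were narrower, with a median width of 426 against 548 bp, and 3 of them against 335 lost regions spanned 2 kb or more. GC content was 47.3% against 49.2% (medians). The median change of losses was -0.80 at promoters, -0.84 in introns, -0.83 between genes, -0.87 in coding exons and -0.86 in UTRs. That of gains was 0.997, 1.05, 1.05, 1.195 and 1.04 in the same order, with 19 regions in coding exons.

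Across all gained regions, 60.7% had the AP-1 letters on either strand of their central 300 bp (767 of 1263, 95% Wilson interval 58.0 to 63.4). Among lost regions the share was 7.15% (752 of 10516, interval 6.67 to 7.66), and over all 41411 regions listed in any contrast it was 13.4%. The forms of the motif were counted apart. The form with C or G in the middle, TGACTCA with its reverse complement, was in 54.0% of gained and 4.30% of lost regions, and TGAATCA with its reverse complement in 10.9% and 3.01%. More than 1 match was found in 15.1% of gained and 0.304% of lost regions. These intervals cover counting error only. The gained set was largely shared with other groups. Of the 1263 regions, 72 were not listed in untrained muscle at 6 h and 297 not in trained muscle at 0 h. Those contrasts listed 8360 and 34078 of the 63953 regions tested, with 4139 and 4462 gains.

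The share was higher among larger gains. With the gained regions ranked by change and cut into 4 equal sets, it was 52.5% in the set with the smallest changes (0.45 to 0.85, interval 47.0 to 58.0) and 68.4% in the set with the largest (1.34 to 3.29, interval 63.0 to 73.2), with 57.6% and 64.4% between. In lost regions it ran from 8.82% in the set with the smallest losses to 5.74% in the set with the deepest. Among the 631 gained regions below the median sedentary concentration of gained regions, the share was 66.4% and the median change 1.28. Size of gain and resting level were not told apart. The matches sat near the middle of the gained regions. Of 995 matches in gained regions, 51.5% lay within 50 bp of the centre, against 33.7% of 784 matches in lost regions, where bins of 20 bp held between 0.352 and 0.59 matches per 100 regions across the window. Since gained regions were weaker at rest, the share was also taken over regions with a concentration of at least 9.0, the table median, in the higher of the pair of groups. This alternative was chosen after seeing the data. It was 55.0% of 191 gained and 7.28% of 5699 lost regions.

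**Figure D2:**
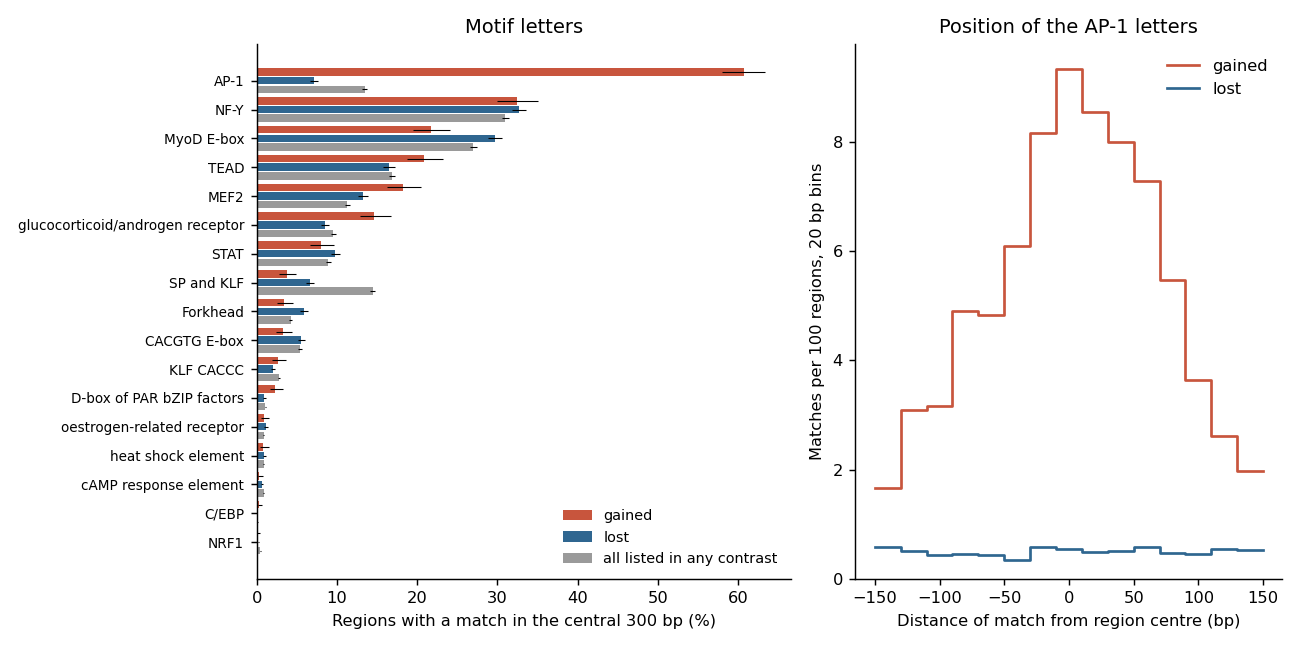
Left, the percentage of gained (1263), lost (10516) and all listed regions (41411) with each motif in the central 300 bp, with 95% Wilson intervals. Right, AP-1 matches per 100 regions in bins of 20 bp by distance from the region centre. AP-1 letters were in 60.7% of gained and 7.15% of lost regions and peaked at the centre of gained regions, at 9.34 matches per 100 regions in the middle bin.

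The other 16 motifs differed by fewer percentage points. The palindromic core of the element bound by the glucocorticoid and androgen receptors, ACANNNTGT, was in 14.6% of gained regions (interval 12.8 to 16.7), 8.50% of lost and 9.53% of all listed regions. It was in 19.8% of the gained regions that lacked the AP-1 letters (interval 16.5 to 23.5) and in 11.3% of those that had them (interval 9.29 to 13.8). The MEF2 letters CTANNNATA were in 18.2% of gained, 13.2% of lost and 11.3% of all listed regions. The MyoD E-box CAGCTG went the other way, at 21.7% of gained and 29.7% of lost regions (intervals 19.5 to 24.1 and 28.8 to 30.6). The GC-rich GGGCGG of SP and KLF factors, common at promoters, was in 3.72% of gained and 6.57% of lost regions, below the 14.4% of all listed regions. The D-box TTATGTAA of clock output factors was in 2.30% of gained and 0.922% of lost regions. The cAMP response element TGACGTCA was in 0.317% and 0.59%. A match is a stretch of letters and not a measured binding site, and it tells nothing of which family member, if any, was bound.

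Among regions with a concentration of at least 9.0 in one of the groups, the largest gain lay at chr15:103290311-103291009, 15470 bp upstream of Itga5, which encodes the alpha chain of the fibronectin receptor. Its concentration went from 7.48 to 9.69, or from 178 to 827 normalised reads, a 4.64-fold rise. The 2 other gained regions of Itga5 had smaller changes, down to 1.35, and the gene had no lost region. Next came a region 34383 bp upstream of Med9, a Mediator subunit, which went from 7.19 to 9.28. A region in an intron of Map3k4, a stress-activated kinase kinase kinase upstream of p38 and JNK, went from 142 to 512 normalised reads, a 3.61-fold rise. The region named for Hif1a, the oxygen-regulated transcription factor, lay 145538 bp upstream in an intron of Prkch and went from 8.35 to 10.17, a 3.52-fold rise. Gadd45g, a stress-induced gene that feeds the p38 pathway, had a gain of 1.51 at 121936 bp from its start site. The others of the 10 were near Hivep3 (1.80), Kcns2 (1.64, within Stk3), Rell1 (1.60), Hhipl2 (1.51) and Sugp2 (7.85 to 9.35). AP-1 letters were in 7 of the 10, and not in those of Itga5, Hivep3 and Gadd45g.

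The same regions have values in the other tables, which share the sedentary group and its normalisation. Near Itga5 the concentration was 9.14 in trained muscle at 0 h, 9.69 at 6 h, and 10.22 in untrained muscle at 6 h. In Map3k4 trained muscle at 0 h stood at 9.33 and untrained muscle at 6 h at 10.21. Near Hif1a trained muscle stood at 11.02 at 0 h and 10.17 at 6 h, and untrained muscle at 10.19 and 10.53. In each of the 10 regions the level of untrained muscle at 6 h was above that of trained muscle at 6 h. The levels were closest near Gadd45g, at 10.33 and 10.17, and farthest apart in Map3k4. None of the 10 was listed in trained muscle at 72 h, and a change too small to be listed would not show. Of all 1263 gained regions, 1239 were not listed there either. That contrast listed 2624 of the 63953 regions tested and only 27 gains, so most of the 1263 could not be listed there as gains. Whether the groups at 6 h differed was not tested, since these tables give each only against sedentary muscle.

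**Figure D3:**
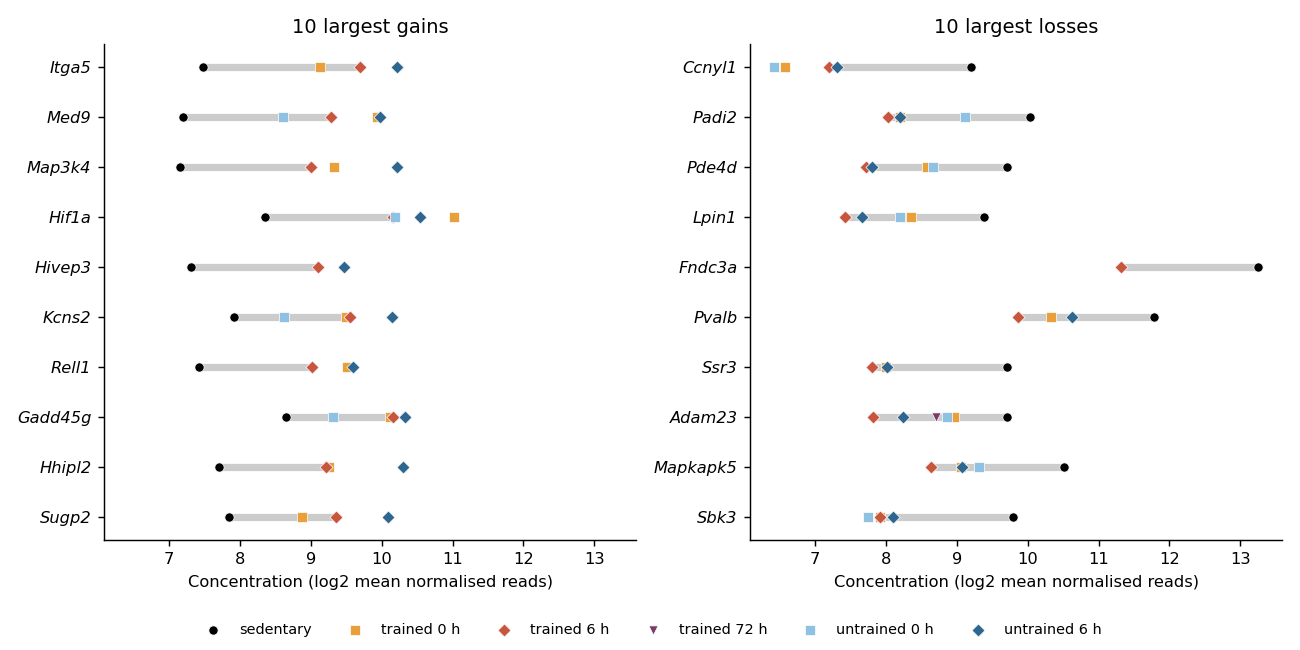
Concentration (log2 mean normalised reads) in each group for the 10 largest gains and the 10 largest losses among regions at or above the level minimum. Grey bars join sedentary and trained 6 h, symbols can overlap, and a group without a symbol was not listed there. In the gains, untrained muscle at 6 h sits above trained muscle at 6 h throughout, and the 10 losses fall by 1.88 to 2.01.

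Without the level minimum the largest gains were near Map3k7 (4.58 to 7.87), which encodes the kinase TAK1, Tmx1 (4.65 to 7.73), Olfml3 (4.17 to 7.07), Agap1 (4.40 to 7.24) and in Abhd2 (5.44 to 8.02). The first is a change of 3.29, from 24.0 to 234 normalised reads, and rests on few reads at rest.

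The 6 well covered gained promoters with the largest changes were those of Bltp3b (1.47), Slc39a14 (1.26), Agpat3 (0.96), Or10ak9 (0.89), Svil (0.76) and Wnt5b (0.57). Slc39a14 encodes the zinc and iron importer ZIP14, and its promoter region went from 8.44 to 9.70 in trained muscle at 6 h, beside 9.98 at 0 h. Among weaker promoters, chosen from the gene lists, were Csrp3, a strain-sensing Z-disc protein, from 7.32 to 8.73 (8.26 in trained muscle at 0 h and 9.55 in untrained at 6 h), the stress factor Atf3 (change 1.44), Pfkfb2, an enzyme that sets the level of the glycolytic activator fructose 2,6-bisphosphate (1.40), Myoz2 of the Z-disc (1.10), the core clock gene Bmal1 (1.07) and Casq2, a calcium store protein (1.04).

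Gained regions also occurred in runs. The longest chain, with neighbours no more than 250 kb apart, held 13 gained regions and 1 lost region over 1096 kb of chromosome 13 around the insulin signalling subunit gene Pik3r1 and the immune receptor gene Cd180. Their changes ran from 0.61 to 1.62 with a median of 1.21, from sedentary concentrations of 5.91 to 8.34. The 6 regions nearer to Cd180 were 97709 to 439806 bp upstream of it, and 5 of them lacked AP-1 letters while 3 had the glucocorticoid receptor letters. Of the 7 nearer to Pik3r1, 4 had AP-1 letters and 1 the glucocorticoid receptor letters. A second run of 8 gained regions on chromosome 9, with 2 lost regions inside it, covered 471 kb and took in Nnmt, Zbtb16 and Usp28. Zbtb16 encodes the repressor PLZF, which is induced by glucocorticoids. All 4 listed regions of Zbtb16 were gains inside its introns (0.64 to 0.91), none with AP-1 letters or the glucocorticoid receptor letters, and the latter were in 0 of the 8 gained regions of this run. Its 6278 bp region was the widest gain of all, from 11.06 to 11.93, with 12.44 in trained and 12.15 in untrained muscle at 0 h and 12.01 in untrained muscle at 6 h.

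The growth regulator Myc had 7 gained and 4 lost regions, all intergenic and 11483 to 862169 bp downstream of its start site. The largest gain lay 333763 bp away and went from 6.12 to 8.33, and 6 of the 7 gained regions had AP-1 letters. Plcb4, a phospholipase C gene, had 6 gained regions and no lost one (0.62 to 1.79), 1 of them at a promoter. Trib1, a pseudokinase gene, had 5 gained and 4 lost regions. Camk2d, a calcium/calmodulin-dependent kinase gene, had 4 gained regions in its introns (1.23 to 1.71), each with AP-1 letters, and 1 lost region. The other genes with 4 gained regions that came first by name were Bach2 and Cdh13, with 5 and 6 lost regions beside them.

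**Figure D4:**
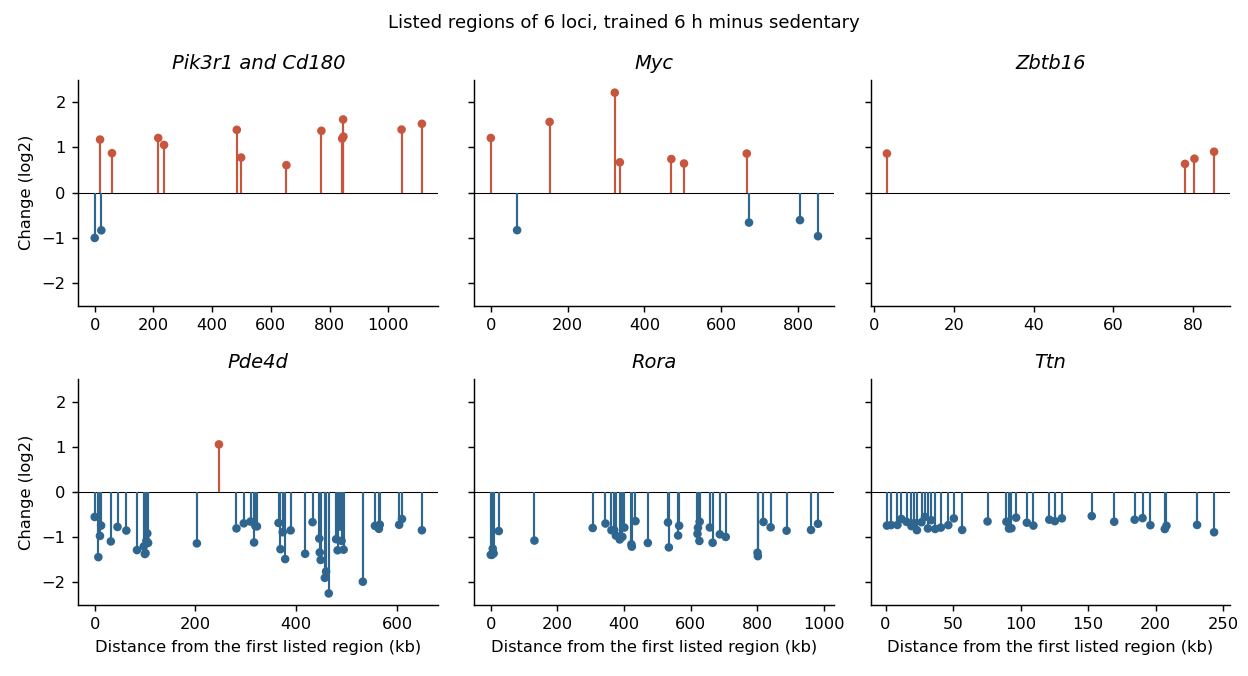
Change (log2) of every listed region of 6 loci, by distance in kb from the first listed region of the locus. Gains are red and losses blue. Pik3r1 with Cd180, Myc and Zbtb16 carry runs of gains, and Pde4d (46 lost, 1 gained), Rora (37 lost) and Ttn (36 lost) carry runs of losses.

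The genes with the most lost regions were Pde4d, Rora and Ttn. Pde4d, a phosphodiesterase that degrades cAMP, had 46 lost regions over 650 kb and 1 gained region (1.05). Their median change was -1.04, and 24 of the 46 fell by 1 or more. The deepest, in an intron, went from 8.36 to 6.11, the deepest loss of the table at -2.25. Both of its listed promoter regions were lost, at -1.38 and -1.21. The nuclear receptor gene Rora had 37 lost regions over 984 kb (median -0.94, -1.42 to -0.65) and no gain. Ttn, which encodes the sarcomeric spring titin, had 36 lost regions over 244 kb that together covered 142888 bp. Their changes kept to a narrow range, from -0.89 to -0.54 with a median of -0.71. Then came the forkhead factor genes Foxn3 (26 lost) and Foxp1 (21 lost, 1 gained) and the transcription factor gene Maf (20 lost, 1 gained). The number of regions tested per gene was not analysed here, and long genes have room for more of them.

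The 10 deepest losses among well covered regions fell by 1.88 to 2.01. The region 13801 bp upstream of Ccnyl1 went from 9.20 to 7.19, and stood lower still at 0 h, at 6.57 in trained and 6.42 in untrained muscle. A region in an intron of Padi2, which encodes a protein-citrullinating enzyme, went from 10.03 to 8.02, with 8.19 in trained muscle at 0 h. A region 76539 bp from Lpin1, a phosphatidate phosphatase and coactivator of lipid metabolism, went from 9.38 to 7.42, below the 8.35 of trained muscle at 0 h. The strongest region of the 10 lay in an intron of Fndc3a, fell from 13.25 to 11.32 (from 9773 to 2559 normalised reads), and was listed in no other contrast. A 1826 bp region 4120 bp upstream of Pvalb, the calcium buffer of fast fibres, went from 11.78 to 9.86. The remaining 5 were another intronic region of Pde4d (9.71 to 7.72) and regions near Ssr3, Adam23, Mapkapk5 and Sbk3. AP-1 letters were in 2 of the 10, those of Lpin1 and Pvalb. In untrained muscle at 6 h 9 of the 10 were listed, and in all 9 the level there was above that of trained muscle at 6 h. The 10 were picked for their fall in trained muscle at 6 h, which favours a higher level in any other group. Of all 10516 lost regions, 6929 were not listed in untrained muscle at 6 h. That contrast listed 8360 of the 63953 regions tested, 4221 of them losses, and the size of the list limits this count. Of the 10, only the Adam23 region was also listed in trained muscle at 72 h, at 8.71 against 9.70 in sedentary muscle. Of all lost regions, 8949 were not listed at 72 h, where the contrast held 2597 losses in all, so most could not be listed there as losses.

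Lost promoters were led by Ctxnd2 (9.63 to 7.99), the potassium channel gene Kcna10 (change -1.51), the G protein subunit gene Gnb3 (10.29 to 8.87), Pde4d, Gpam, which starts triglyceride synthesis (10.96 to 9.62), and the phosphatase gene Dusp26 (9.15 to 7.84). Those of Ctxnd2, Pde4d and Gpam were also listed at 72 h in trained muscle, at 8.50, 8.22 and 10.01.

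The widest lost regions had high concentrations at rest. A concentration counts reads over the whole region, so it rises with width and is not a measure of openness per base. The widest, 32092 bp over Pfkfb3, an enzyme that makes the glycolytic activator fructose 2,6-bisphosphate, fell from 15.39 to 13.75, a 3.11-fold drop. Its resting concentration, not scaled by width, was the highest of the table. It was lower at 0 h in trained muscle (12.22) and stood at 14.05 in untrained muscle at 0 h and 13.34 at 6 h. Pfkfb3 had 8 lost regions in all and no gain, down to -1.91. The 22746 bp region over Pvalb fell from 15.37 to 14.35, and the 22302 bp region over the promoter end of Ttn from 13.80 to 13.14. The 22085 bp region over Nr4a1, an immediate early orphan nuclear receptor, fell from 14.47 to 13.46. In untrained muscle at 0 h the same Nr4a1 region stood at 15.30, above sedentary muscle.

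The gene lists below were read by the nearest start site. By this rule 22.4% of the 21738 annotated protein-coding genes had a lost region (4870) and 4.82% a gained one (1048), with 533 genes having both. Of the 1335 genes with 3 or more listed regions, 947 had losses alone, 12 had gains alone and 376 had both. Over all listed regions 10.7% were gains and the median change was -0.81. The list counts are set against these shares and were not tested, and annotated genes include many that muscle does not express.

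In each of the 25 lists lost regions outnumbered gained ones. Of 57 sarcomere genes, 32 had a lost region (56.1%) and 9 a gained one (15.8%), with 137 lost and 13 gained regions and a median change of -0.76. Promoter regions were lost at 16 of these genes, among them Actc1 (to -1.44), Myl1 (to -1.22) and Mylk2 (-1.15), and gained at Csrp3 and Myoz2. Of the 137 lost regions, 27 were at promoters, beside 7.12% of all lost regions. With the deposited gene symbols 19 genes had a loss (33.3%), and 8 of 55 lost regions were at promoters. The share of all genes with a lost promoter was not counted. Mylk2, the myosin light chain kinase of skeletal muscle, had 7 lost regions, the deepest from 9.37 to 7.71. That region lay 22543 bp away in an intron of Tpx2. Gains within the list lay in introns of Xirp2 (6.63 to 8.28), which encodes an actin-binding repeat protein, and of Smyd1 (5.92 to 7.54), a muscle methyltransferase. Myosin heavy chain genes split, with losses near Myh2 and Myh4 and 1 gain named for Myh1 (7.31 to 8.78) that lay in an intron of Myh2.

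Calcium handling genes had a lost region at 30 of 40 members and a gained region at 11, and with the deposited gene symbols at 20 and 7. Losses took in the release channel Ryr1 (10 regions, -1.08 to -0.64), the junctophilins Jph1 (11) and Jph2 (9), Stim2 (10) and Nfatc1 (10, down to -1.53). Gains included the calcium/calmodulin kinases Camk2d and Camk2b (6.34 to 8.08) and Ryr3 (5.30 to 6.96), the last 16566 bp upstream inside Tmco5b. The Camk2b region lay 53223 bp upstream inside Nudcd3. Of the 33 genes of cAMP signalling 23 had losses, with 123 lost and 10 gained regions, of which Pde4d alone gave 46 losses. Pde4b had 12 lost regions, 3 of them at promoters. Akap6, an anchor of protein kinase A at the nuclear envelope, had 4 losses and a gain of 1.65.

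The transcription factors that hold muscle identity, with class IIa deacetylases, had 161 lost and 5 gained regions, so 3.01% of them were gains. Losses covered Hdac4 (18 regions, -1.31 to -0.79), Sox6 (15), Tead1 (15), Eya4 (12), Mef2c (9), and the muscle regulators Myod1 and Myf6. The deepest were near Six2 (8.46 to 6.51) and Vgll2 (change -1.60). Nfib had 18 losses and 2 gains, the larger 337540 bp away (5.90 to 7.80). Chromatin regulators had 104 lost and 6 gained regions, with Med13l (15 lost), Jarid2 (14), Arid1b and Chd7 (11 each) in front.

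Clock genes lost accessibility at 14 of 23 members (60.9%, beside 22.4% of all annotated genes), with 72 lost and 4 gained regions. Rora alone gave 37 of the losses. With the deposited gene symbols 7 members had a loss (30.4%), with 44 lost and 6 gained regions. The repressor gene Nr1d1 had 3 lost regions, of which the deepest went from 8.85 to 6.95, and Per2 had 2, the deeper from 8.12 to 6.58. The gains were the Bmal1 promoter (5.97 to 7.04), 2 regions of its partner gene Npas2 (0.75 and 1.41), and 1 region 105634 bp from Nfil3 (5.94 to 7.68). The hour at which each group was taken is not given in the sources used here, so time of day and recovery cannot be told apart for these genes.

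In the list of the glucocorticoid receptor and its muscle targets 16 of 37 regions were gains (43.2%), at Fkbp5, Tsc22d3, Zbtb16, Pik3r1 and Glul. Of these, 11 were at Pik3r1 and Zbtb16, and without those genes, an alternative chosen after seeing the data, 5 gained and 19 lost regions were left. With the deposited gene symbols the list had 7 gained and 16 lost regions. Fkbp5, a receptor co-chaperone that the hormone induces, had 2 gains in its introns and no loss, the larger from 5.58 to 7.53. Both regions had AP-1 letters, and 1 of them also had the glucocorticoid receptor letters. The receptor gene Nr3c1 itself had 1 lost region (-0.85). In insulin signalling 24 of 61 regions were gains (39.3%), 7 of them the Pik3r1 regions that are also in the first list. Others were in Grb10, an adaptor that restrains the receptor (6.46 to 8.36), and near Pik3ca, the catalytic subunit (5.69 to 7.34). Irs1 had 4 losses (9.77 to 8.32 for the deepest, 314443 bp away). Within 10 kb of a start site the first list kept 1 gained and 4 lost regions and the second 3 and 4. Oxidative phosphorylation subunits had few listed regions, 5 lost and 4 gained among 34 genes, none at a promoter.

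Immediate early genes had 29 lost and 11 gained regions, and Myc gave 7 of the gains. Atf3 had 2 gains, the larger from 6.52 to 8.11, and Ier5 a gain 59220 bp away (7.62 to 8.80). Genes of the Fos and Jun families were among the losses: Fosl2 with 8 lost regions (down to -1.24), Jun with 3 and Fos with 2, and none of these had a gain. Fosb, Junb, Jund and Egr1 had no listed region. Chromatin near a gene is not its protein or its activity, and neither was measured here.

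Genes of growth and atrophy had 39 losses and 5 gains. The gains were at Foxo1, an atrophy regulator, 204114 bp downstream (4.86 to 7.22), at Rptor (5.77 to 7.26), Smad7 and Fst, and the losses included the activin receptor genes Acvr2a (9 regions) and Acvr2b and the growth inhibitor Mstn. The largest Smad7 gain lay 114608 bp away in an intron of Ctif, and the deepest Acvr2a loss 733084 bp away. Regulators of oxidative metabolism had 57 losses and 8 gains. Ppargc1a, a coactivator of mitochondrial genes, had 2 losses and 1 gain (0.96), Esrrg 6 losses and 2 gains, and Thra a promoter loss from 12.12 to 10.86. Genes of glucose metabolism had 31 losses and 5 gains, of which 2 were near Slc2a1 (6.09 to 7.63 for the larger), the basal glucose transporter. Fatty acid genes had 23 losses and 2 gains, and Lpl, which releases fatty acids from lipoproteins, fell from 8.76 to 7.32 at its deepest region.

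Genes of angiogenesis and hypoxia had 37 losses and 11 gains. Vegfa had 5 losses and no gain (9.41 to 8.16 for the deepest), Hif1a 1 gain and 5 losses, Egln3, an oxygen-sensing hydroxylase that HIF induces, 2 gains (1.07 and 1.19), and Cited2 4 gains and 6 losses, its largest gain 688138 bp away. TGF-beta, integrin and matrix genes had 69 losses and 10 gains. Of the gains, 7 were at adhesion genes, with 3 at Itga5, 1 at Itgb1 (6.90 to 8.34), 1 at Itga7 (0.89) and 2 at Vcl (0.99 and 1.38), while Tgfb2 had 13 losses and Acvr1 8, the deepest from 9.10 to 7.36. At the neuromuscular junction 26 regions were lost and 8 gained. Promoters of the receptor genes Chrna1 (-0.94) and Chrne (-1.12), of Colq (-1.15) and of Ache (-0.99) were lost, and gains lay at Lama2 (5.19 to 6.71), Ncam1 and Dok7. Heat shock and unfolded protein genes had 8 losses and 2 gains, at Cryab (0.78) and Bag3 (0.74), and housekeeping genes 9 losses and 1 gain.

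**Figure D5:**
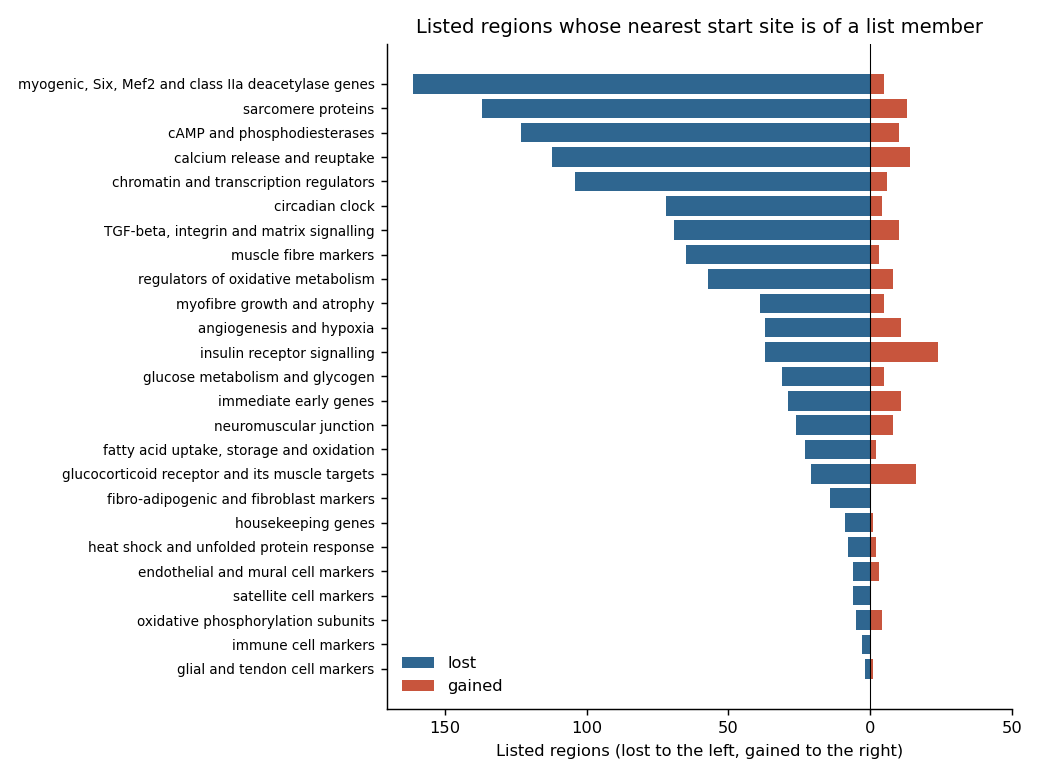
Listed regions per gene list, lost to the left and gained to the right, by nearest protein-coding start site. Losses outnumber gains in each of the 25 lists, for example by 161 to 5 in the list of muscle identity factors and class IIa deacetylases and by 21 to 16 in the glucocorticoid list.

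Markers of fibres and of other cells were read in the same way. The 18 fibre markers had 68 listed regions at 10 genes, with sedentary concentrations from 7.21 to 15.37 and a median of 9.94. The 60 markers in 5 lists of endothelial and mural, fibroblast, immune, satellite, and glial and tendon cells had 35 listed regions at 18 genes (30.0%, beside 24.8% of all annotated protein-coding genes), 31 lost and 4 gained, with sedentary concentrations from 4.93 to 11.88 and a median of 9.13. Only 1 of the 35 was at a promoter, that of Col1a2 (-0.72). Of the 4 gains, 1 near Cdh5 lay 566413 bp off and the others were near Myh11 (5.70 to 6.95), Cspg4 (1.12) and Sox10 (1.39). Of the 13 immune markers, Ptprc (to -0.67) and Mrc1 (-0.76) had lost regions and the other 11 had none listed. The tables list only changed regions, so these counts say nothing of the purity of the sorted nuclei, and the part of other cells in the result was not tested.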

How the data were processed

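Per the labels, 21 samples made 7 groups of 3. The labels do not state whether a group's samples are different animals. Reads were trimmed (Trimmomatic 0.39) and aligned to the GRCm39 build (Bowtie2 2.4.4, SAMtools 1.15) by the authors, who called regions with Genrich 0.6.1, compared groups in DiffBind 3.4.11, which ran DESeq2, and annotated them with ChIPseeker 1.30.3. The deposited group concentrations are log2 means of normalised reads, which the authors pooled over the samples of a group. The deposited p-value and FDR columns served to check the listing threshold of 0.05, to apply a stricter one of 0.01 and to recover the 63953 regions tested, and the authors' fold changes were not used. There were 0 unmatched columns of single samples.

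Genes were named by the nearest start site of a protein-coding transcript in GENCODE M39, because most gene positions deposited with the symbols did not overlap the same gene on GRCm39. Named regions were chosen by fixed rules, taking each gene once and leaving out predicted models. These gave the 10 largest gains and losses and the 6 largest promoter changes with a concentration of at least the table median (9.0) in 1 group, the 6 genes with the most gained and the most lost regions, the 4 widest regions in each direction, and up to 4 members per gene list with the largest change. Ties in the number of regions were taken in order of name. Other members of the lists named beside these, the largest gains without a level minimum and the runs of gained regions were chosen after their values were seen. The members and the 25 gene lists were chosen with earlier results of these data known. The 17 motifs were sought on both strands of the 300 bp around each region's centre. The motif search, the naming and the recovery of the number tested were checked on simulated data. Python 3.11.15, pandas 2.3.3 and scipy 1.17.1 were used, with Wilson 95% intervals for shares. How DiffBind normalised the reads is not given in the sources used here. Alternatives were the stricter FDR, a minimum change of 1, a level minimum, autosomes alone, other promoter definitions, the gene symbols of the deposited table, a limit of 10 kb, a 200 bp window and regions away from promoters.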

Additional observations from a re-analysis of the deposited data

How the results depend on the processing

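Losses outnumbered gains under every alternative run. The alternatives to the region counts each keep part of the same 11779 calls, and the normalisation was not varied, so they are no independent check of the direction. With an FDR under 0.01 there were 3880 lost and 651 gained regions (85.6% lost, median change of lost regions -1.01 and of gained regions 1.3), with a change of at least 1 there were 2454 and 697 (77.9% lost), and at or above the level minimum 5699 and 191 (96.8% lost, median gain 0.87). The promoter share of lost regions was 14.6% within 3 kb, 5.87% by the region's centre, 8.65% by the deposited annotation and 5.57% with the stricter FDR, and that of gained regions was 7.52% both within 3 kb and by the deposited annotation. Within 10 kb of a start site 2461 genes had a lost region, 291 a gained one and 66 both, and with the stricter FDR these were 2365, 576 and 177. AP-1 letters were in 53.1% of gained and 4.62% of lost regions in a 200 bp window, and at or above the level minimum, an alternative chosen after seeing the data, in 55.0% of gained regions. Of 50 list counts, 26 moved by over 1.5 times with the gene symbols of the deposited table and 45 within 10 kb. Losses outnumbered gains in all 25 lists with the deposited symbols and in 22 of 25 within 10 kb, with no list the other way. With regions counted inside the annotated gene, also chosen after seeing the data, the lost counts of Pde4d, Rora and Ttn stayed within 1.5 times. The causes of these shifts were not tested, beyond the smaller number of regions that each stricter setting leaves.

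No paired analysis was possible because only group means were deposited in these tables, and for the same reason leaving out single samples was not run. Regions that missed the threshold are absent from the tables, so a gene that is not listed is not shown to be unchanged.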
